A study of Rattus norvegicus with 8 samples.

Results

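The G1 cyclins and their kinases are the genes that carry a cell from its growth phase, G1, into DNA synthesis, S phase. The 10 genes described here are the E-type cyclins Ccne1 and Ccne2, the D-type cyclins Ccnd1, Ccnd2 and Ccnd3, the cyclin-dependent kinases (CDKs) Cdk2, Cdk4 and Cdk6, the phosphatase gene Cdc25a and the retinoblastoma gene Rb1. They were chosen by name, through the accession of each array probe, out of 15159 gene symbols that the 30367 non-control probes could be matched to. Each of the 10 genes had 1 probe matched in this way, so 10 probes in all, and no gene was missing. As 12361 probes matched no symbol, a further probe of a member among them would not have been seen. In the rat genome build GRCr8 Ccne1 and Ccnd1 lie on chromosome 1, Ccnd2 and Cdk6 on 4, Ccne2 on 5, Cdk2 and Cdk4 on 7, Cdc25a on 8, Ccnd3 on 9 and Rb1 on 15.

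The cells were endothelial cells of the lung from Sprague-Dawley rats aged 8 to 10 weeks, taken 5 days after a subcutaneous injection. Monocrotaline, a plant alkaloid that injures the vessels of the lung, had been given at 60 mg/kg for the 4 samples of the treated group, and saline for the 4 samples of the control group. The lungs were digested with collagenase and cells were picked out with magnetic beads coated with an antibody to CD31, which platelets and some leukocytes carry as well, and RNA was taken without culture. Each sample was read on 1 single-colour array. The labels do not say how many rats a sample came from, so p-values measure only the spread between these samples.

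In the textbook account, mitogens raise D-type cyclins, which bind CDK4 or CDK6 and begin to phosphorylate the RB protein. RB then lets go of E2F transcription factors, and these switch on the genes of E-type cyclins, which bind CDK2 and carry RB phosphorylation and the start of replication further. CDC25A removes inhibitory phosphates from CDK2. Lung endothelium in a healthy adult divides rarely.

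Both E-type cyclins rose after monocrotaline, by 7.61-fold (Ccne1) and 10.3-fold (Ccne2), and none of the 3 D-type cyclins passed the test in either direction. Ccne2 was near background on saline arrays, and with normexp background correction the log2 fold change was 1.84 in place of 3.36, below that of Ccne1 (2.75 in place of 2.93). Among the kinases, Cdk2 had a 1.498-fold higher mean, Cdk4 a 1.23-fold higher one and Cdk6 a mean 0.667-fold that of saline, and none of these 3 passed. Cdc25a was 1.68-fold higher without passing, and Rb1 differed by 1.02-fold. The test was limma's moderated test of monocrotaline against saline on log2 signals, run on all 21652 probes that were well above background on at least 4 of 8 arrays, with p adjusted by Benjamini and Hochberg over them and 0.05 as the threshold. All 10 members passed this filter, and 9 of them cleared background on each of the 8 arrays. Of the 10 members 2 rose and 0 fell, against 1.36% of all tested probes that rose and 0.0647% that fell. The log2 fold change was above 0 for 7 of the 10, against 46.3% of all tested probes, and its median was 0.29 over the members and -0.02 over all probes.

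**Figure D1:**
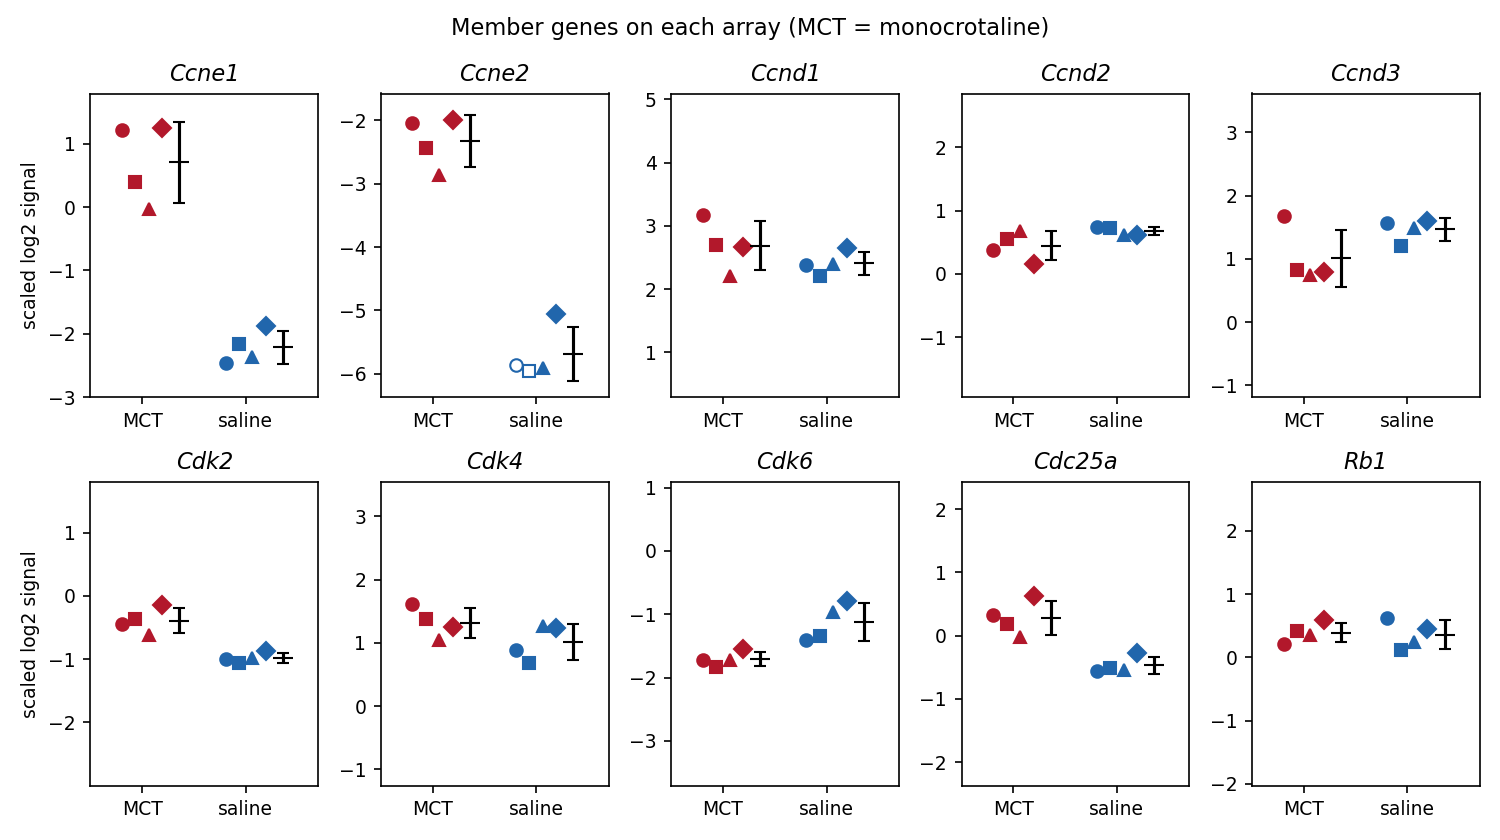
Scaled log2 signal of each of the 10 genes on each array, with monocrotaline (MCT, red) left of saline (blue) and marker shapes standing for replicates 1 to 4 (circle, square, triangle, diamond). The bars give mean ± SD over 4 arrays, open markers are arrays where the probe was not well above background, and every panel spans the same range of log2 units. The groups lie apart without overlap for Ccne1, Ccne2, Cdk2, Cdc25a and Cdk6.

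Signals are given below on a log2 scale on which the 75th percentile of each array is 0, and a level on it can be set against other arrays for the same probe but not against another probe. Between 74.9% and 77.7% of the non-control spots on monocrotaline arrays and between 70.8% and 76.4% on saline arrays were well above background. Saline replicate 2 was the dimmest array, with a median processed signal of 118 against 179 to 251 on the other 7. The number of arrays limits the precision of every value. All arrays lay on 1 slide, with the monocrotaline arrays in its row 2 and the saline arrays in its row 1, so slide row and treatment cannot be told apart. Samples with the same replicate number share a slide column. With this number as a block limma's adjusted p was 0.0633 for Ccne1 and for Ccne2, so neither passed. Within the columns of replicates 1 to 4, monocrotaline minus saline was 3.69, 2.55, 2.33 and 3.14 log2 units for Ccne1 and 3.82, 3.53, 3.04 and 3.07 for Ccne2, so both were higher after monocrotaline in each of the 4 columns. In a bulk sample, fewer cells of a type and less RNA per cell cannot be told apart either.

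Ccne1, cyclin E1, had scaled log2 signals of 1.23, 0.39, -0.03 and 1.26 on monocrotaline replicates 1 to 4, against -2.46, -2.16, -2.36 and -1.88 on saline replicates 1 to 4. The lowest monocrotaline array thus lay far above the highest saline array, and the monocrotaline arrays were the more spread of the 2 groups (SD of 0.64, against 0.26 for saline, n = 4 each). The log2 fold change was 2.93 ± 0.31 (SE, limma adjusted p = 0.0102), with a 95% interval of 2.23 to 3.63. Without saline replicate 1 the size was 2.85 and limma's adjusted p was 0.0508, the one array whose loss ended the call. The unscaled processed signals were 3737, 2648, 1671 and 5260 on monocrotaline arrays, against 314, 234, 366 and 465 on saline arrays.

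Ccne2, cyclin E2, had scaled log2 signals of -2.03, -2.44, -2.87 and -1.99 on monocrotaline replicates 1 to 4, against -5.86, -5.96, -5.91 and -5.06 on saline replicates 1 to 4. It was well above background on 4 of 4 monocrotaline arrays and on 2 of 4 saline arrays, replicates 3 and 4. The groups did not overlap, and saline replicate 4 stood above the other saline arrays. The log2 fold change was 3.36 ± 0.27 (SE, limma adjusted p = 0.0044), with a 95% interval of 2.75 to 3.98. The saline signals lay near background, and with normexp background correction and an offset of 50 the log2 fold change was 1.84 and limma's adjusted p = 0.0104. The call held without any single array, at adjusted p = 0.0046 to 0.0313 (limma).

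The E-type genes also placed the monocrotaline arrays alike. Replicates 1 and 4 were the high arrays and replicate 3 the low one for both Ccne1 and Ccne2. The 2 spots of Ccne1 differed by at most 0.20 log2 units on any array, and those of Ccne2 by at most 0.18, less than the SD between samples of either group.

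Ccnd1, cyclin D1, the D-type cyclin most often tied to growth factor signals, had scaled log2 signals of 3.17, 2.69, 2.21 and 2.67 on monocrotaline replicates 1 to 4, against 2.38, 2.21, 2.39 and 2.65 on saline replicates 1 to 4. The groups overlapped, with monocrotaline replicate 1 high and replicate 3 among the saline values. The log2 fold change was 0.28 ± 0.21 (SE, limma adjusted p = 0.588), and its 95% interval of -0.19 to 0.75 leaves room for a change of up to 1.68-fold upward or a small fall. Its processed signals were 7918 to 14388 on monocrotaline arrays, against 4820 to 10773 on saline arrays.

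Ccnd2, cyclin D2, had 0.38, 0.55, 0.68 and 0.16 on monocrotaline replicates 1 to 4, against 0.74, 0.72, 0.62 and 0.62 on saline replicates 1 to 4. Of the monocrotaline arrays 3 lay below all saline arrays and replicate 3 lay within them. The log2 fold change was -0.23 ± 0.14 (SE, limma adjusted p = 0.502, 95% interval -0.54 to 0.09), and without scaling between arrays, which moved the median of all probes to 0.24, it was 0.036.

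Ccnd3, cyclin D3, which is prominent in lymphocytes, had 1.68, 0.82, 0.74 and 0.80 on monocrotaline replicates 1 to 4, against 1.56, 1.20, 1.49 and 1.60 on saline replicates 1 to 4. Monocrotaline replicate 1 was above every saline array while the other 3 were below all of them. Its log2 fold change was -0.45 ± 0.23 (SE, limma adjusted p = 0.415, 95% interval -0.97 to 0.06). Without monocrotaline replicate 1 it was -0.68, with limma's adjusted p = 0.114.

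**Figure D2:**
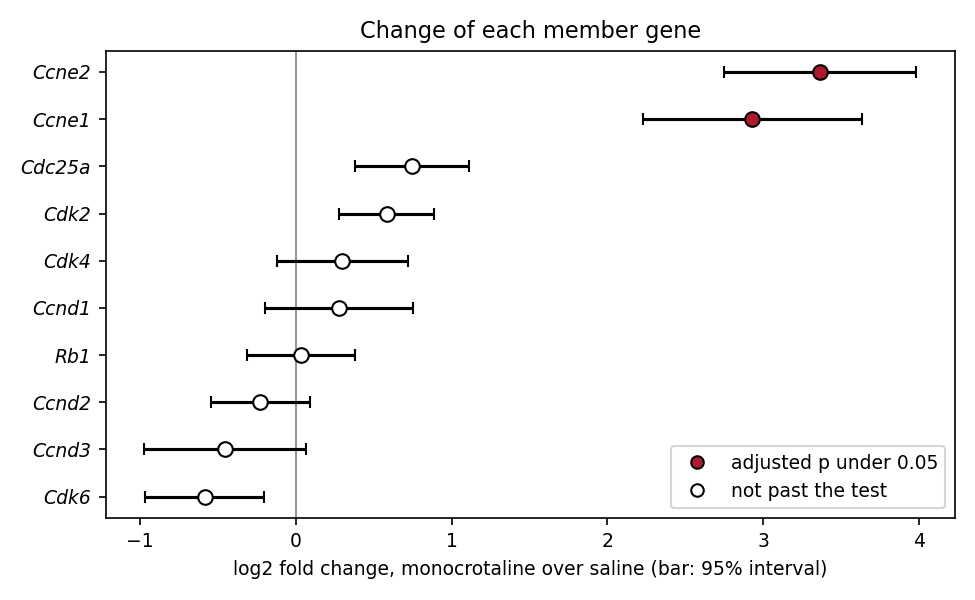
Log2 fold change of monocrotaline over saline for the 10 genes, in order of size, with the 95% interval from limma (4 arrays per group). Filled points passed an adjusted p of 0.05. Ccne1 and Ccne2 stand far to the right at 2.93 and 3.36, and the intervals of Ccnd1, Ccnd2, Ccnd3, Cdk4 and Rb1 include 0.

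The contrast of E-type with D-type cyclins was taken within each array, as the log2 ratio of one gene's signal to another's, in which any scaling between arrays cancels. For Ccne1 over Ccnd1 the log2 ratio, with the saline mean taken off, was 2.68, 2.33, 2.38 and 3.21 on monocrotaline replicates 1 to 4, against -0.22, 0.26, -0.13 and 0.09 on saline replicates 1 to 4. The ratio was thus higher by 2.65 ± 0.23 (SE, n = 4 per group), or 6.27-fold. Ccne2 over Ccnd1 gave 2.90, 2.98, 3.02 and 3.45 on monocrotaline arrays, against -0.13, -0.07, -0.19 and 0.40 on saline arrays, a difference of 3.09 ± 0.18 (SE). This was the ratio with the smallest SE of the 6.

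The other 4 ratios were higher after monocrotaline by 3.16 ± 0.45 (Ccne1 over Ccnd2), 3.38 ± 0.31 (Ccne1 over Ccnd3), 3.59 ± 0.39 (Ccne2 over Ccnd2) and 3.82 ± 0.28 (Ccne2 over Ccnd3), each with its SE. With normexp correction the 3 differences for Ccne2 were 1.57 over Ccnd1, 2.06 over Ccnd2 and 2.27 over Ccnd3. In each of the 6 pairs all 4 monocrotaline arrays lay above all 4 saline arrays. The two-sided exact permutation p was 0.0286 for each pair, the smallest that the 70 regroupings allow, and the adjusted p over the 6 pairs was 0.0286. The pairs share genes, and the E-type genes were known from earlier results to be among the largest rises of these arrays, so the 6 tests are neither independent of each other nor of that knowledge. For both E-type genes the gap between groups exceeded the whole range of each D-type gene, so this p was fixed by the single genes. It adds nothing to the calls of Ccne1 and Ccne2.

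**Figure D3:**
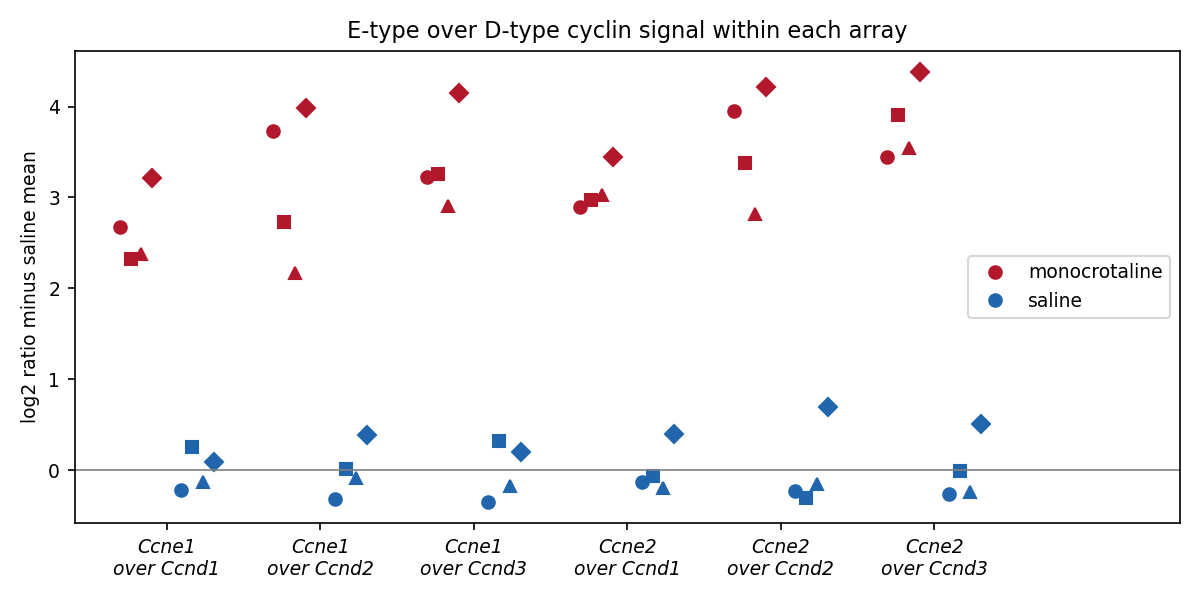
Log2 ratio of an E-type to a D-type cyclin signal within each array, less the saline mean of that ratio, for the 6 pairs, with monocrotaline in red to the left of saline in blue and marker shapes for replicates 1 to 4. The monocrotaline arrays lie between 2.17 and 4.38 and the saline arrays between -0.35 and 0.69.

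Cdk2, the kinase partner of E-type cyclins, had scaled log2 signals of -0.45, -0.36, -0.61 and -0.14 on monocrotaline replicates 1 to 4, against -0.99, -1.06, -0.98 and -0.87 on saline replicates 1 to 4. The groups did not overlap. Monocrotaline over saline gave a log2 fold change of 0.58 ± 0.13 (SE, 95% interval 0.28 to 0.89), with an unadjusted p of 0.0020 and limma's adjusted p = 0.0872. This probe was printed 10 times on each array (7 to 10 spots used), and the SD between those spots was at most 0.09 log2 units on any array. That is smaller than the SD of 0.20 between monocrotaline samples, but not than the SD of 0.08 between saline samples. Of the alternatives tried, Cdk2 passed only when arrays were weighted by limma's array weights (adjusted p = 0.0447).

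Cdc25a, which encodes the phosphatase that activates CDK2, had 0.32, 0.18, -0.02 and 0.62 on monocrotaline replicates 1 to 4, against -0.56, -0.51, -0.54 and -0.27 on saline replicates 1 to 4. These groups did not overlap either. Its log2 fold change was 0.75 ± 0.16 (SE, 95% interval 0.38 to 1.11), with an unadjusted p of 0.0014 and limma's adjusted p = 0.0714, and with array weights the adjusted p was 0.0328. Cdc25a and Cdk2 had the closest pair of profiles among the 10 members, with a root-mean-square difference of 0.12 log2 units over the 8 arrays once each gene's own mean was taken off. As for the E-type cyclins, monocrotaline replicate 4 was the highest array and replicate 3 the lowest of its group for both. Replicate 3 was also the lowest monocrotaline array for Ccnd1 (2.21), Ccnd3 (0.74) and Cdk4 (1.04), so its low place was not particular to these genes. It was not shared by all members, as replicate 3 was the highest for Ccnd2 (0.68) and neither highest nor lowest for Cdk6 and Rb1.

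Cdk4 and Cdk6, the kinases that D-type cyclins bind, had fold changes of opposite sign. Cdk4 had 1.61, 1.37, 1.04 and 1.25 on monocrotaline replicates 1 to 4, against 0.89, 0.67, 1.26 and 1.24 on saline replicates 1 to 4, with overlapping groups and a log2 fold change of 0.30 ± 0.18 (SE, limma adjusted p = 0.506, 95% interval -0.12 to 0.72). Cdk6 had -1.72, -1.84, -1.73 and -1.55 on monocrotaline replicates 1 to 4, against -1.41, -1.34, -0.96 and -0.78 on saline replicates 1 to 4. Each monocrotaline array was below each saline array for Cdk6, and the log2 fold change was -0.58 ± 0.17 (SE, unadjusted p = 0.0077, limma adjusted p = 0.172, 95% interval -0.97 to -0.20). The saline arrays were the more spread for Cdk6 (SD of 0.12 for monocrotaline and 0.30 for saline, n = 4 each).

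Rb1, whose product holds E2F factors in check, had 0.21, 0.42, 0.35 and 0.58 on monocrotaline replicates 1 to 4, against 0.63, 0.11, 0.24 and 0.45 on saline replicates 1 to 4. The groups overlapped fully and the log2 fold change was 0.03 ± 0.15 (SE, limma adjusted p = 0.948), with a 95% interval of -0.31 to 0.38 that leaves room for changes of up to 1.30-fold upward. In all, the groups did not overlap in 5 of the 10 members, 4 of them higher after monocrotaline, while 8.56% of all tested probes had groups apart and 4.67% were higher after monocrotaline.

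The RefSeq promoter table (build GRCr8) held 6 of the 10 members, Ccne1, Ccnd3, Cdk2, Cdk4, Cdc25a and Rb1. In the 250 bases before each start, 2 motifs were searched on both strands: TTTNNCGC, a form of the site that E2F factors bind, and the E-box CACGTG, which MYC and related factors bind. The motifs do not overlap in these windows. Cdc25a had 1 E2F-type match, TTTGGCGC, from 236 to 229 bases before the start, and Cdk4 had 3 E-boxes, beginning 203, 183 and 95 bases before it. Ccne1, Ccnd3, Cdk2 and Rb1 held neither string. Of 33469 promoters 4.11% held TTTNNCGC and 5.59% held CACGTG in the same window. The sequences of the E-type and the D-type cyclin in the table, and of the 2 members with a match, are shown 5′ to 3′ on the gene's strand with matches in capitals.
Ccne1 (chr1:99927910-99928159, minus strand): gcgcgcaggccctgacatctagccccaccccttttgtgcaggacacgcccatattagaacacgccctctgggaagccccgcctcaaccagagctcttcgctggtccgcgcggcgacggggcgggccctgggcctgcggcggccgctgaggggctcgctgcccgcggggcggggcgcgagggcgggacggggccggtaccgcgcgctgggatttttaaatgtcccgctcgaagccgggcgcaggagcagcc
Ccnd3 (chr9:20897876-20898125, minus strand): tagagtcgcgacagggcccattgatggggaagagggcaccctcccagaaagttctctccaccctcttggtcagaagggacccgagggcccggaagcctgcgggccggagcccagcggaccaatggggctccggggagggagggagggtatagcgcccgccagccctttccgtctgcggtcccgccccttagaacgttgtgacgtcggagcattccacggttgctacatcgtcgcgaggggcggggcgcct
Cdc25a (chr8:118742798-118743047, plus strand): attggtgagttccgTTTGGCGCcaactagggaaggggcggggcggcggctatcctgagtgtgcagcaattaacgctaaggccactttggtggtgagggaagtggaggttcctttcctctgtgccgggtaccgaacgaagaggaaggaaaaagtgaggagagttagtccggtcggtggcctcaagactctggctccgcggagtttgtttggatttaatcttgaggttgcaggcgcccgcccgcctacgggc
Cdk4 (chr7:64771203-64771452, plus strand): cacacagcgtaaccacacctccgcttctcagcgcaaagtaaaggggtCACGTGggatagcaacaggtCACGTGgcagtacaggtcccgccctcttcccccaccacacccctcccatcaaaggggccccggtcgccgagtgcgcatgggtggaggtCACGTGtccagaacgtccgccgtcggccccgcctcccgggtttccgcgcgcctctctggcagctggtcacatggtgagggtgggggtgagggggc
A match is only a string of letters, and its absence says nothing of whether a factor binds.

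Genes that work next to the members were taken from lists by role, with the brightest probe of each gene. The shares to set beside each count of calls are those over all tested probes, 1.36% that rose and 0.0647% that fell. Origin firing factors, which cyclin E and CDK2 activity helps to start, rose in 6 of 10 measured genes and fell in 0, with a median log2 fold change of 1.24. Mcm10 rose by 2.33 ± 0.27 (log2 fold change ± SE, limma adjusted p = 0.0109), Cdc45, part of the replicative helicase, by 2.22 ± 0.24, and Gins3, of the same helicase, by 1.63 ± 0.21. Cdc45 had 2.59, 1.98, 1.49 and 2.26 on monocrotaline replicates 1 to 4, against -0.33, -0.09, -0.32 and 0.20 on saline replicates 1 to 4, so that replicate 3 was the lowest of the monocrotaline arrays here too. Leaving out saline replicate 1 ended all 6 calls, leaving out monocrotaline replicate 4 gave 2, and leaving out monocrotaline replicate 1 or any other saline array gave 3.

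Of the later cyclins A, B and F with CDK1, 2 of 6 rose and 0 fell, with a median of 1.12. Ccna2, cyclin A2, rose by 2.02 ± 0.32 (SE, limma adjusted p = 0.0261) and Cdk1, the mitotic kinase, by 1.75 ± 0.34 (SE, adjusted p = 0.0489). Neither gene passed when any one saline array, or monocrotaline replicate 1 or 4, was left out, and leaving out monocrotaline replicate 2 gave 1 call.

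Of 8 CDK modifiers (kinases, phosphatases and CKS proteins that act on CDKs) 1 rose and 0 fell, with a median of 0.81. This was Pkmyt1, a kinase that inhibits CDK1, at 1.55 ± 0.16 (log2 fold change ± SE, limma adjusted p = 0.0102). It did not pass when saline replicate 1 was left out, and leaving out monocrotaline replicate 3 gave 2 calls in the list.

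Of 8 CDK inhibitors 2 rose and 0 fell, with a median of 0.30. They were Cdkn2c, p18, an inhibitor of CDK4 and CDK6, at 1.41 ± 0.25 (SE, limma adjusted p = 0.0353), and Cdkn3, a phosphatase that acts on CDK2 and is grouped with the inhibitors, at 1.41 ± 0.25 (SE, adjusted p = 0.0371). Both calls were lost without any single array except monocrotaline replicate 3, and 1 call was left with normexp. Cdkn1b, p27, which binds cyclin E with CDK2, had a log2 fold change of -0.12 ± 0.20 and Cdkn1a, p21, one of -0.04 ± 0.24, and neither passed. These last 2 were named after their values were seen.

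Of 10 parts or regulators of ubiquitin ligases, listed for the turnover of G1 cyclins or their inhibitors, 2 rose and 0 fell, with a median of 0.05. Skp2, which marks p27 for destruction, rose by 1.67 ± 0.18 (SE, limma adjusted p = 0.0102). Fbxo5, EMI1, which holds back the anaphase-promoting complex at the entry to S phase, rose by 2.20 ± 0.31 (SE, adjusted p = 0.0166). Neither passed when saline replicate 1 was left out, and 1 call was left with saline replicate 2, saline replicate 3 or monocrotaline replicate 4 taken out.

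Of 8 pocket proteins and E2F or DP factors 1 rose and 0 fell, with a median of 0.41. This was E2f7, a repressor among the E2Fs that is itself an E2F target, at 1.18 ± 0.19 (log2 fold change ± SE, limma adjusted p = 0.0268). The list had 0 calls when monocrotaline replicate 1 or 4, or any one saline array, was left out and with normexp, and 2 when monocrotaline replicate 2 was left out.

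In the MYC, MAX and MXD list 0 of 8 rose or fell by limma, with a median of 0.04, and array weights gave 1 rise and 1 fall. The list had 1 rise without scaling, and 1 when monocrotaline replicate 3 was left out. Named by rule there was Mnt, a MAX-binding repressor, at -0.27 ± 0.16 (log2 fold change ± SE). Named after their values were seen, Mxd3 was at 1.69 ± 0.33 (limma adjusted p = 0.0535) and Mxi1 at -0.51 ± 0.11 (limma adjusted p = 0.0788). Both had groups that did not overlap, in opposite directions, without passing. Of 13 cyclins and kinases outside the G1 to S switch 0 rose or fell, with a median of -0.05, and Ccni, cyclin I, was at -0.05 ± 0.12. Over all tested probes 13.8% had an unadjusted p under 0.05.

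**Figure D4:**
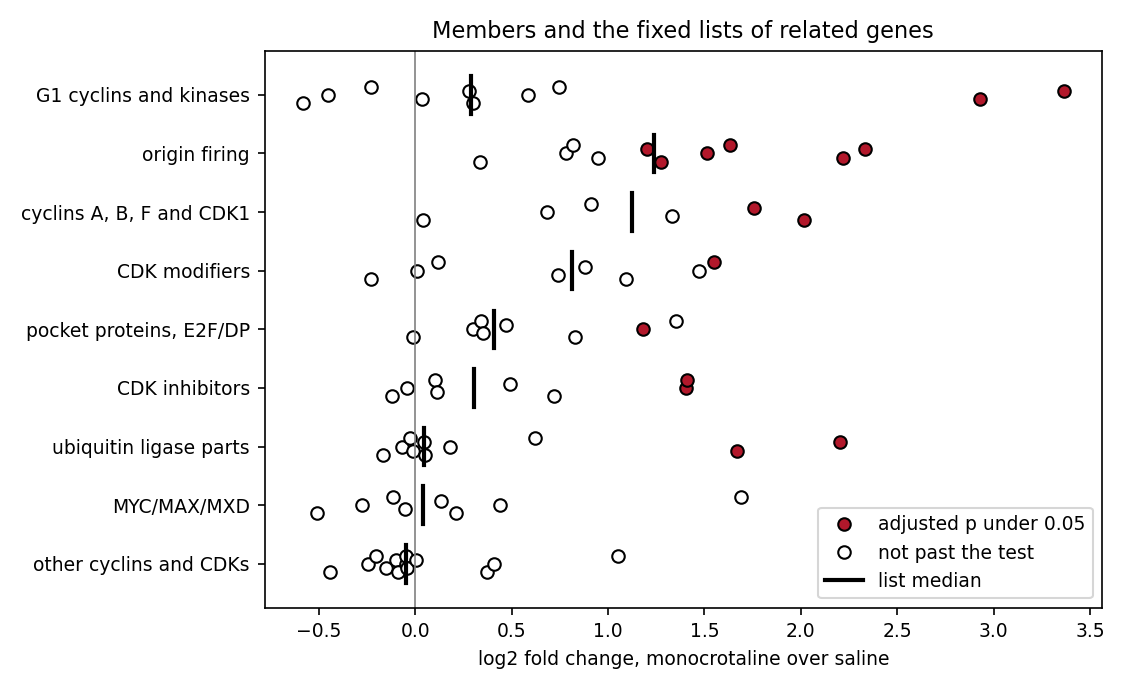
Log2 fold change of monocrotaline over saline for the 10 members and for the measured genes of 8 fixed lists, 1 point per gene at its brightest probe, filled where the adjusted p was under 0.05, with the list median as a black bar. The medians run from -0.05 for the other cyclins and CDKs to 1.24 for the origin firing factors, and the highest points are Ccne1 and Ccne2.

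The genes with the profiles most like the members' over the 8 arrays were sought among 11422 genes with a symbol, by the root-mean-square difference of centred log2 signals. For Ccne1 they were Mybl2, a transcription factor of the S and G2 phases (0.17), Tk1, thymidine kinase (0.18), and Cdc6, which loads the replicative helicase (0.21), against a median of 1.57 over all these genes. For Ccne2 they were Cdc6 (0.34), Pbk, a mitotic kinase (0.35), and Mybl2 (0.37). For Ccnd1 they were Dynlt1, a dynein light chain (0.09), Ppa1, a pyrophosphatase (0.10), and Cavin3, a caveolar coat protein (0.11), against a median of 0.43. For Cdk6 they were Pde4a, a cyclic AMP phosphodiesterase (0.11), Mknk1, a kinase of the MAP kinase pathway (0.14), and the olfactory receptor gene Or1d2 (0.15). The distance weighs size as well as shape, so a gene with a small change finds many near it. A gene with a large change can be near only to genes with a change of like size. Mybl2, Tk1, Cdc6 and Pbk had log2 fold changes of 2.84, 2.64, 2.85 and 2.86, so their nearness to the E-type cyclins largely restates their rise.

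All 15 measured markers of endothelial cells, the labelled cell type, were well above background on all 8 arrays. Pecam1, which encodes CD31, had scaled log2 signals of 5.29, 5.31, 4.76 and 4.98 on monocrotaline replicates 1 to 4, against 5.16, 5.32, 5.28 and 5.79 on saline replicates 1 to 4. Cdh5, VE-cadherin, had 1.43, 1.74, 1.03 and 0.74 on monocrotaline arrays, against 1.35, 1.55, 1.93 and 2.02 on saline arrays. None of the 15 passed limma's test, their median log2 fold change was -0.49, and 0 of the 15 had one above 0, against 46.3% of all tested probes. Their linear scaled signals summed to 146 to 252 on monocrotaline arrays and to 229 to 321 on saline arrays.

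Markers of T and NK cells moved with the treatment, as the E-type cyclins did. Of 20 such genes 19 were tested, as Klrb1 was not well above background on any array. Their median log2 fold change was 1.51, and it was above 0 for 19 of 19, against 46.3% of all tested probes. Of the 19, 3 rose and 0 fell, against 1.36% and 0.0647% of all tested probes. The 3 were Cd247, the T cell receptor zeta chain, at 2.11 ± 0.34 (SE, limma adjusted p = 0.0261), Cd8b, a coreceptor, at 1.67 ± 0.30 (adjusted p = 0.0406), and Zap70, a T cell receptor kinase, at 1.66 ± 0.28 (adjusted p = 0.0303). None of the list passed when saline replicate 1, 2 or 3, or monocrotaline replicate 1, 3 or 4, was left out, and leaving out monocrotaline replicate 2 gave 5 calls. Normexp gave 6 calls and no scaling 10.

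Their summed scaled signals were 21.0, 17.2, 31.9 and 28.9 on monocrotaline replicates 1 to 4, against 9.37, 9.59, 9.48 and 4.20 on saline replicates 1 to 4. Cd3e, a defining T cell gene, had -0.73, -1.25, -0.16 and -0.60 on monocrotaline arrays, against -2.23, -2.07, -1.92 and -3.59 on saline arrays, and was well above background on all 8. Among monocrotaline arrays, replicate 3 had the highest sum and the lowest Ccne1 and Ccne2, replicate 4 the second highest sum and the highest Ccne1 and Ccne2, and replicate 1, where both genes were also high, the third highest sum. Replicate 2 had the lowest sum and the second lowest Ccne1 and Ccne2. The part of T and NK cells in the E-type rise was not tested.

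Of the other marker lists, B and plasma cells (8 tested), monocytes and macrophages (13), fibroblasts (9) and alveolar type 2 cells (7) had 0 calls, with medians of 0.45, 0.01, 0.95 and 0.37. Their sums on monocrotaline and on saline arrays were 29.8 to 83.1 and 24.8 to 65.9 for B cells, and 88.5 to 166 and 131 to 217 for monocytes and macrophages. For fibroblasts they were 42.0 to 94.4 and 18.0 to 76.0, and for type 2 cells 67.0 to 117 and 29.2 to 162. The sums of the groups thus overlapped for all 4 lists, but a linear sum is governed mostly by the brightest genes. In the order of the lists above, 7 of 8, 7 of 13, 9 of 9 and 7 of 7 tested genes had a log2 fold change above 0. Over all tested probes the share was 46.3%. Airway markers had a median log2 fold change of 2.01, with 8 of 9 tested above 0, and 1 rise, Clca1, a product of mucous cells that was named after its values were seen, at 3.35 ± 0.62 (log2 fold change ± SE, limma adjusted p = 0.0418), which was highest on monocrotaline replicates 1 and 3 and not well above background on saline replicates 2 and 3. The list had 0 calls with normexp, with array weights, and when any one array other than monocrotaline replicate 2 was left out. Airway sums were 28.8 to 59.3 on monocrotaline arrays and 45.3 to 60.4 on saline arrays. The part of airway cells in the E-type rise was not tested.

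**Figure D5:**
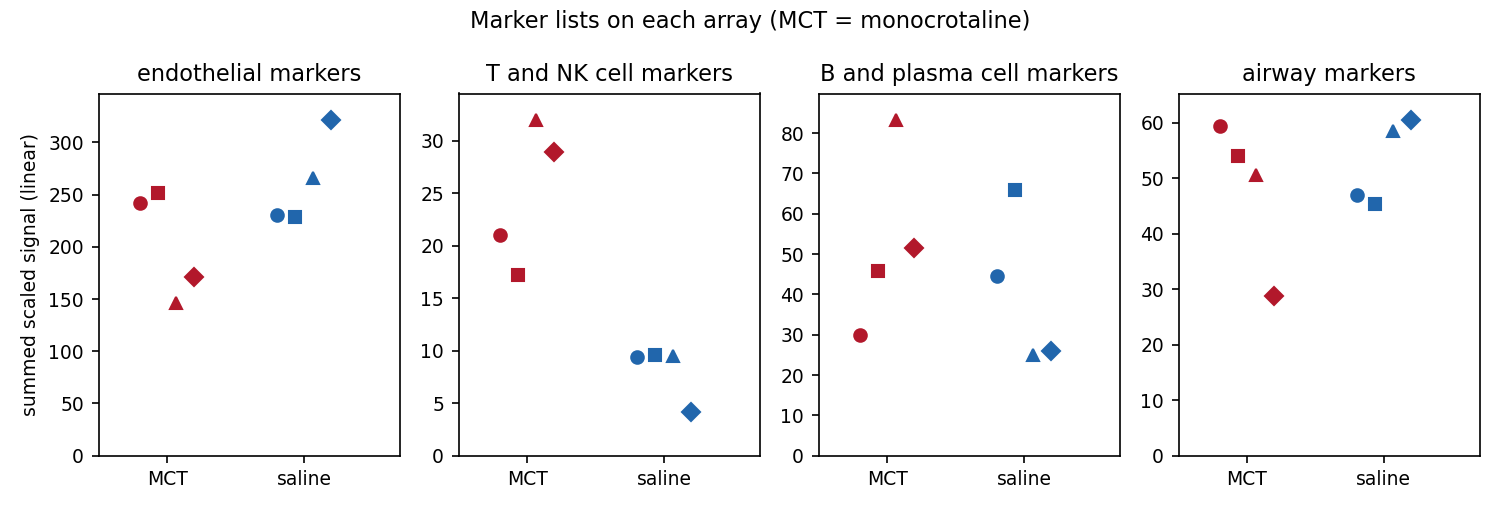
Summed linear scaled signal of 4 marker lists on each array, with monocrotaline (MCT, red) left of saline (blue) and marker shapes for replicates 1 to 4, and with axes that start at 0. The T and NK cell sums do not overlap (17.2 to 31.9 for monocrotaline and 4.20 to 9.59 for saline), while the sums of the other 3 lists overlap. A linear sum is governed mostly by the brightest genes. The median log2 fold change was 2.01 for the airway list and 1.51 for the T and NK list.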

How the data were processed

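RNA of 8 samples was read on 1-colour arrays. Per the file headers, the processed signals are an intensity, background-subtracted and detrended within the array by Agilent Feature Extraction 10.7.3.1 but not scaled between arrays. The 0 or 1 spot flags are other values, as the file headers name them. The deposited table holds the log2 of quantile-normalized log2 signals (median absolute difference 9.89e-10) and served as an alternative. Among tools, the submitters' processing notes list limma 3.6.9, with no role given.

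Control spots (4259) and outlier spots were left out, spots of a probe were averaged, and log2 signals were scaled to each array's 75th percentile. RefSeq accessions named 18006 of 30367 probes. The groups were compared probe by probe with limma 3.58.1 (R 4.3.3). The test was also run on simulated independent probes with the means and SDs of these data. It called 44% of 100 planted changes of 1 log2 unit and 77% of 100 of 2 log2 units, with 3 false calls. In that setting a change of 1 log2 unit often went uncalled. The 200 planted changes lay among 21652 otherwise unchanged, uncorrelated probes. The share called depends on both points, so these rates need not hold on the arrays themselves. The members and lists were chosen with earlier results of these data known. Named by rule are all members, up to 3 called genes per list by size of change, or else the brightest, some cell type markers, and the 3 nearest profiles of 4 members.

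The alternatives were other scalings, normexp, the deposited table, other filters, the brightest probe per gene, limma's trend, robust and array weight options, a replicate block and leaving out arrays.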

Additional observations from a re-analysis of the deposited data

Results flagged for a closer look

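Of 32 sets of 4 values checked (10 genes and 6 ratios in each group), 3 had a value set apart from the other 3 by more than Dixon's 95% limit for 4 samples, where chance gives about 1 in 20. Ccne2 on saline replicate 4 had a scaled log2 signal of -5.06, above the other saline arrays at -5.96 to -5.86, and it stood apart in the Ccne2 over Ccnd2 ratio too, at 0.69 over the saline mean. Ccnd3 on monocrotaline replicate 1 was 1.68, against 0.74 to 0.82 on the other monocrotaline arrays.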

How the results depend on the processing

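Ccne1 kept its call in 18 of 20 alternatives and Ccne2 in 18 of 19, with log2 fold changes of 2.75 to 3.19 and 1.84 to 3.63. Several alternatives changed only the filter, the probe choice or the model and could not move the log2 fold change. The deposited table is itself quantile-normalized, so the tally holds near repeats. Both genes lost the call with a replicate block (limma adjusted p = 0.0633 each), where the sizes stayed 2.93 and 3.36. With the block 0 members and 0 genes of the lists rose, and 0 rises and 0 falls were called over all probes, against 294 and 14. Deviations of same-numbered samples from their group means correlated at -0.33 to -0.01 over probes and no sample correlated best with its own number, so the numbers were not taken to pair the samples, though same-numbered samples share a slide column. With the block the exact sign-flip p of the 6 ratios was 0.125, the smallest that 4 pairs allow, at unchanged differences of 2.65, 3.16, 3.38, 3.09, 3.59 and 3.82.

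Leaving out 1 array gave 1 to 2 rising members, 14 to 316 rises and 0 to 108 falls over all probes, and ratio differences of 2.46 to 2.76 (Ccne1 over Ccnd1), 2.88 to 3.48, 3.13 to 3.54, 2.97 to 3.22, 3.38 to 3.85 and 3.63 to 3.99 (Ccne2 over Ccnd3). The exact permutation p of the ratios was in each case the smallest the design allows, so it says nothing of stability. The filter on all 8 arrays left out Ccne2, so 1 member rose, and array weights raised the members that rose to 4 by adding Cdk2 and Cdc25a, with 59 falls over all probes, 3 calls among the CDK modifiers and 7 among the origin firing factors. The falls were 1 without scaling, 23 with normexp and 9 without a filter. Without monocrotaline replicates 1 and 3, left out together after seeing that Clca1 was highest there, 62 probes rose and 1 fell. Clca1 on the monocrotaline arrays kept was still above every saline array.

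Rb1 changed sign in 5 alternatives, to -0.0078 with median scaling, -0.088 with array weights, and -0.031, -0.048 and -0.0061 without monocrotaline replicate 4, saline replicate 2 and saline replicate 3. Its range over all fits that left out 1 array was -0.048 to 0.12. Ccnd2 did so without scaling (0.036). The cause was not tested. The mean of a gene's probes could not differ from the brightest probe, since each member has 1 matched probe. Ccne2's saline signals near background limit its size.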
